A study of Mus musculus with 16 samples.

Results

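The regions described here are stretches of genomic DNA that overlap the 3′ untranslated region (3′ UTR) of a gene and carry reads of 5-hydroxymethylcytosine (5hmC) in mouse CD4 T cells. They were taken from the gene-part annotation of the deposited count table: a region was kept when it was marked as overlapping a 3′ UTR and as overlapping neither a promoter nor a 5′ UTR. Of 177720 regions in the table, 9979 were marked with a 3′ UTR, 1985 of these also touched a promoter or a 5′ UTR, and 7994 regions (4.5%) remained. A region only has to overlap the 3′ UTR and can extend beyond it. Among the 7994 regions 62.3% also overlapped an intron, and their median width was 1224.5 bp (175 to 91401 bp). Of the 7994, 7615 could be given the symbol of 1 gene, 5748 genes in all, and 368 lay on the 3′ UTRs of several genes.

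5hmC is made when a TET enzyme oxidises 5-methylcytosine, and it marks active gene bodies and enhancers as well as DNA that is losing methylation. Regulatory T cells (Treg) need TET activity to keep Foxp3 expressed; vitamin C raises the activity of TET enzymes, and retinoic acid promotes Treg differentiation in the presence of TGFβ. The 3′ UTR is the transcribed stretch after the stop codon, where an mRNA holds its binding sites for microRNAs and RNA-binding proteins and its polyadenylation signals. 5hmC is a mark of the DNA, so a read over a 3′ UTR here says nothing directly about those sites in the mRNA.

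All groups share 1 source, the spleen and lymph nodes of C57BL/6 mice aged 5 to 6 weeks with a Foxp3-eGFP reporter. The 4 groups were induced Treg (iTreg) differentiated from naive CD4 T cells with TGFβ, retinoic acid and vitamin C (RA+VitC iTreg), iTreg differentiated with TGFβ alone (TGFβ iTreg), Treg sorted as CD4+ eGFP+ cells, and naive T cells sorted as CD4+ eGFP- CD25- CD44lo cells with a further surface marker. 5hmC was measured by CMS-IP, in which bisulfite turns 5hmC into cytosine-5-methylenesulfonate and an antiserum against it pulls down the DNA. Each group had 2 replicates, each with a pull-down and an input library. The labels do not say whether replicates were separate mice or cultures, so p-values speak only for these libraries. The fit took the spread from all tested regions together and gave no weight to each region's own replicates. A small p-value or standard error therefore does not show that the 2 replicates of that region agree. The sort used the proteins of Il2ra (CD25) and Cd44 among others, so differences at those genes between the sorted groups concern genes used to choose the cells.

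Pull-down libraries held 3996442 and 3828487 reads in RA+VitC iTreg, 1648804 and 2114056 in TGFβ iTreg, 7664194 and 8347328 in Treg, against 7773777 and 9731897 in naive cells. The median 3′ UTR region therefore had 12 and 11 reads in RA+VitC iTreg, 6 and 7 in TGFβ iTreg, 27 and 29 in Treg, against 25 and 32 in naive cells. A region with no read can still stand at up to 3 reads at 95% confidence, which is 0.879 and 0.897 CPM in RA+VitC iTreg, 1.79 and 1.5 in TGFβ iTreg, and 0.308 to 0.385 in the sorted cells. This limit covers counting error only. CPM, the usual scale for sequencing depth, divides each count by its library's TMM-scaled total of reads in regions. For inputs the plain total of reads in regions was used. All values are relative within a library, because reads of the spiked amplicons were not used, and they give no total amount of 5hmC.

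3′ UTR regions took a larger share of pull-down than of input reads in all 8 pairs of libraries. Their share of pull-down reads was 8.18% and 8.09% in RA+VitC iTreg, 7.79% and 7.91% in TGFβ iTreg, 8.23% and 8.29% in Treg, against 8.41% and 8.45% in naive cells, while the inputs lay between 7.09% and 7.27%. The ratio of pull-down to input share was 1.15 and 1.13 in RA+VitC iTreg, 1.09 and 1.11 in TGFβ iTreg, 1.13 and 1.14 in Treg, against 1.17 and 1.17 in naive cells. This places 3′ UTR regions below regions on a 5′ UTR, whose ratio ranged from 1.18 to 1.36, and above regions on exons without UTR or promoter (0.967 to 1) and regions on introns only (0.893 to 0.937). Intergenic regions had ratios of 1.03 and 1.02 in TGFβ iTreg, against 0.885 to 0.936 in the 6 libraries of the other groups. These shares are descriptions of 8 library pairs, with no test.

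Of the 7994 regions, 6740 (84.3%) passed a filter on low counts and were tested, and 1254 did not. The filter asks for enough reads in as many libraries as a group holds, so it can be met by 1 group alone. Counts of the 8 pull-downs were fitted together over all 135412 regions of the table that passed the filter, and a region is called where edgeR's quasi-likelihood test gives an adjusted p under 0.05 over all of them. Fold changes are on the log2 scale, with ± giving the standard error of the fit, and each group has n = 2. The 3 comparisons with naive cells share the naive libraries, and the comparisons with Treg or TGFβ iTreg share those libraries in the same way.

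In sorted Treg against naive cells, 864 of the 6740 regions were higher and 754 lower, 12.8% and 11.2%, beside 13% higher and 10.1% lower among all tested regions. TGFβ iTreg had 744 regions higher and 777 lower than naive cells, where all tested regions gave 13.1% and 8.28%. RA+VitC iTreg had 1346 higher and 1102 lower than naive cells, against 21.9% and 15.8% of all tested regions. Between the induced groups, 421 regions were higher and 115 lower in RA+VitC iTreg than in TGFβ iTreg, against 4.6% and 1.98% of all tested regions. Against sorted Treg, TGFβ iTreg had 558 regions higher and 605 lower, with 9.55% and 5.88% of all tested regions as background. RA+VitC iTreg had 1115 higher and 851 lower than Treg, with 17.8% and 11.4% as background.

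The members' shares lay near these background shares, apart from a larger share of lower calls in TGFβ iTreg and a larger share of higher calls in RA+VitC over TGFβ iTreg. TGFβ iTreg had 11.5% of 3′ UTR regions lower than naive cells and 8.98% lower than Treg, and 6.25% were higher in RA+VitC than in TGFβ iTreg. The split between higher and lower depends on the scaling wherever RA+VitC iTreg is involved. With plain library sizes it was 1026 higher and 1804 lower against naive cells, 218 and 228 against TGFβ iTreg, and 778 and 1655 against Treg. That scaling moved the median log2 fold change of all tested regions by -0.23, -0.19 and -0.25 in these comparisons. Counts also rested on single libraries: the RA+VitC over TGFβ iTreg calls numbered 316 without RA+VitC iTreg replicate 3-20 and 293 without TGFβ iTreg replicate 3-20.

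Other single libraries moved these counts by more than 1.5 times. Treg against naive cells gave 1062 calls without Treg replicate 2 and 981 without naive replicate 2, and TGFβ iTreg against naive cells gave 914 without TGFβ iTreg replicate 3-5. TGFβ iTreg against Treg gave 773 and 637 calls without replicates 3-20 and 3-5 of TGFβ iTreg, and RA+VitC iTreg against Treg gave 1290 without RA+VitC iTreg replicate 3-20. With DESeq2 in place of edgeR, calls numbered 496 for Treg against naive cells, and every one of the 6 counts was more than 1.5 times smaller. In the inputs, which were not pulled down, edgeR called 0 of 3339 tested 3′ UTR regions in each of the 6 comparisons. The inputs held 1028822 to 1563165 reads, fewer than any pull-down, so changes are harder to call in them. At an unadjusted p under 0.05 the inputs gave 167 to 202 of these regions (5% to 6.05%). Among all 44917 tested input regions the called shares were 0%, 0.00223%, 0.00668%, 0%, 0.00223% and 0.00445%, in the order of the comparisons above.

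**Figure D1:**
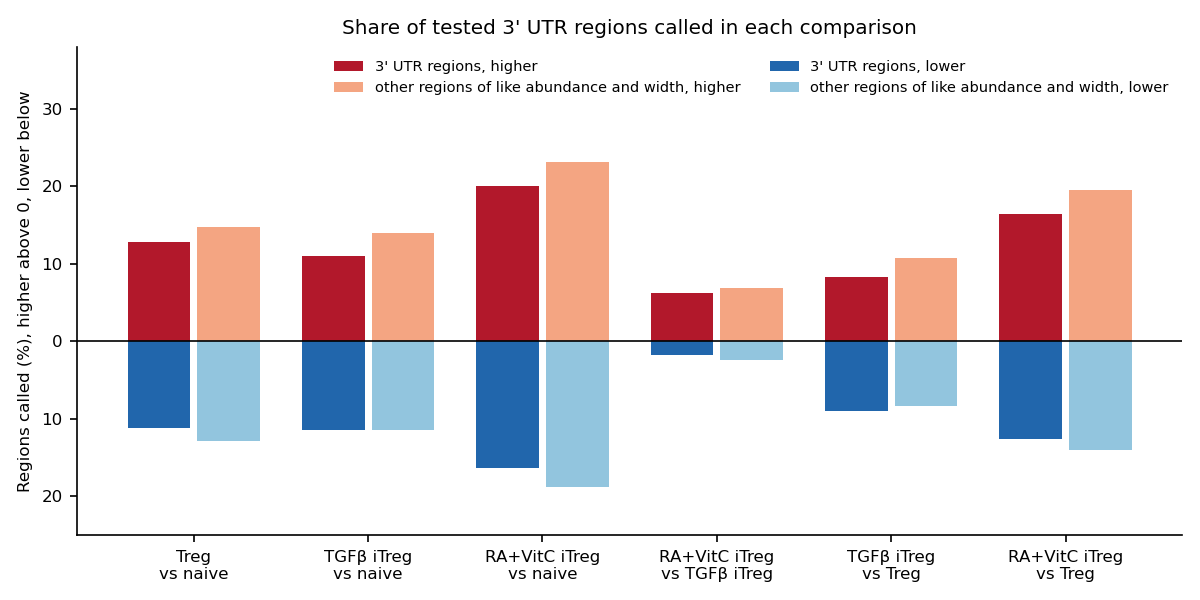
Share of tested 3′ UTR regions called in each of the 6 comparisons (percent, higher above 0 and lower below it), beside the share among other tested regions weighted to the same distribution of mean abundance and width. In Treg against naive cells 12.8% of 3′ UTR regions and 14.7% of the other regions were higher, and in RA+VitC against TGFβ iTreg 6.25% and 6.86%.

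Tested 3′ UTR regions were wider and held more reads than other regions: their median width was 1567 bp, against 1011 bp over all tested regions, and their mean log2 CPM had a median of 2.186 against 1.675. Regions of the same abundance and width were therefore compared, by averaging over 10 classes of mean abundance crossed with 10 classes of width. Weighted in this way, other regions were called higher in Treg over naive cells in 14.7% and lower in 12.9%, above the 12.8% and 11.2% of 3′ UTR regions. In 4 of the 6 comparisons both shares of 3′ UTR regions were below those of the other regions. The exceptions were the lower calls in TGFβ iTreg, with 11.5% against 11.4% over naive cells and 8.98% against 8.33% over Treg, where the higher calls were below those of the other regions.

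Within these classes the mean log2 CPM of 3′ UTR regions stood slightly above that of other regions in 6 libraries and slightly below it in TGFβ iTreg. The difference was 0.028 and 0.013 in RA+VitC iTreg, -0.012 and -0.016 in TGFβ iTreg, 0.038 and 0.04 in Treg, against 0.035 and 0.041 in naive cells. The 2 TGFβ iTreg libraries thus lay below all others, and the 2 sorted groups overlapped. The gap between groups was -0.052 for TGFβ iTreg minus naive cells, -0.053 for TGFβ iTreg minus Treg and 0.034 for RA+VitC minus TGFβ iTreg. Replicate standard deviations of these gaps were 0.004, 0.002 and 0.008. RA+VitC iTreg minus naive cells gave -0.018 (0.008), RA+VitC iTreg minus Treg -0.018 (0.007), and Treg minus naive cells 0.001 (0.003).

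The kind of region that 3′ UTR regions were set against changed these values. Against intergenic regions of the same abundance and width the difference was 0.05 and 0.028 in RA+VitC iTreg, -0.061 and -0.073 in TGFβ iTreg, 0.093 and 0.107 in Treg, against 0.111 and 0.116 in naive cells. Against intron-only regions it stayed above 0 in every library, from 0.018 to 0.049. Against 5′ UTR regions it was below 0 in every library other than TGFβ iTreg replicate 3-20, where it was 0.016, and it reached -0.061 in naive cells. When only other regions on exons and introns were used, TGFβ iTreg minus naive cells came to -0.015. TGFβ iTreg libraries were the shallowest, and with all libraries thinned to the same depth the gap to naive cells was -0.065 against all other regions. All of these gaps are a few hundredths of a log2 unit, or up to -0.18 against intergenic regions for TGFβ iTreg minus naive cells, and are given with no test.

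**Figure D2:**
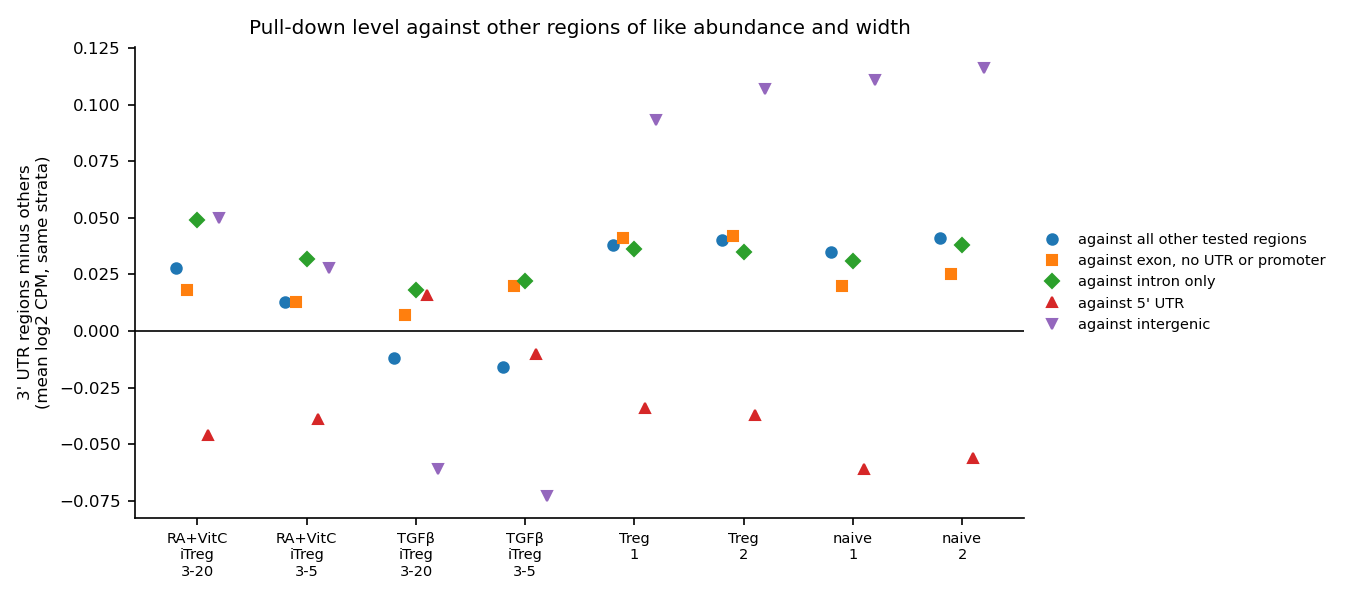
Mean log2 CPM of 3′ UTR regions minus that of other tested regions in the same classes of abundance and width, in each pull-down library, with 1 symbol for each kind of region they are set against. Against intergenic regions the TGFβ iTreg libraries lie at -0.061 and -0.073 and the naive libraries at 0.111 and 0.116.

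The signal over single genes moved far more than these averages. Regions named for the largest changes were chosen to have no overlap between the libraries of the 2 compared groups. Where such a separation is stated for them, it was set by that choice. Il2ra, which encodes the high-affinity chain of the interleukin 2 receptor (CD25), has a 3′ UTR region at chr2:11597273-11619124 (mm9). It stood at 265 and 242 CPM in RA+VitC iTreg, 96.5 and 123 in TGFβ iTreg, 98 and 96.4 in Treg, against 17.2 and 16.6 in naive cells. No library of the Treg and iTreg groups overlapped the naive ones, and RA+VitC iTreg stood above all others. Inputs over this region held 75.5 and 59.9 CPM in Treg and 90.6 and 80.1 in naive cells. Treg thus stood above its inputs and naive cells below theirs. The log2 fold change was 2.52 ± 0.1 in Treg over naive cells (adjusted p 2.6e-125) and 1.19 ± 0.1 in RA+VitC over TGFβ iTreg (adjusted p 7.4e-30).

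Rgs1, a regulator of G-protein signalling that dampens chemokine receptor responses, showed the highest fold change in Treg over naive cells among regions with enough reads to be named. Its region at chr1:146088534-146094741 had 65 and 60.7 CPM in RA+VitC iTreg, 40.5 and 56.4 in TGFβ iTreg, 31.4 and 36.7 in Treg, against 2.95 and 2.88 in naive cells. Every Treg and iTreg library lay far above both naive libraries. The inputs held 33.3 and 33.4 CPM in Treg and 30.4 and 26.9 in naive cells there. Treg thus stood near its inputs and naive cells below theirs. A rise between groups does not by itself show a level above input. The log2 fold change was 3.54 ± 0.17 in Treg (adjusted p 4.8e-90) and 4.42 ± 0.17 in RA+VitC iTreg (adjusted p 2.1e-140) over naive cells. Ikzf2, which encodes Helios, a transcription factor known from thymus-derived Treg, had 312 and 277 CPM in RA+VitC iTreg, 201 and 207 in TGFβ iTreg, 301 and 312 in Treg, against 56.3 and 51.9 in naive cells over chr1:69576912-69623360. Both iTreg groups stood above naive cells (log2 2.45 ± 0.09 in RA+VitC iTreg and 1.92 ± 0.1 in TGFβ iTreg). RA+VitC iTreg overlapped Treg, and their difference did not pass the test (log2 -0.06 ± 0.07, adjusted p 0.61), while TGFβ iTreg stayed below Treg (log2 -0.59 ± 0.09, adjusted p 2.6e-10).

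Further regions rose in Treg over naive cells. Ostn, a secreted peptide best known from bone and muscle, had 27.8 and 32.3 CPM in RA+VitC iTreg, 31 and 29.9 in TGFβ iTreg, 14.3 and 13.8 in Treg, against 1.54 and 1.44 in naive cells over chr16:27347720-27352375. Its log2 fold change in Treg was 3.23 ± 0.24 (adjusted p 8.3e-38). Both sorted groups lay below their inputs at Ostn, with 21.8 and 19.7 CPM in Treg and 14.2 and 20.4 in naive inputs. Pms1, a member of the mismatch repair family, was highest in Treg: chr1:53253224-53256838 had 8.2 and 13.2 CPM in RA+VitC iTreg, 11.3 and 11 in TGFβ iTreg, 25.3 and 29.1 in Treg, against 4.49 and 3.08 in naive cells. The Treg libraries of Pms1 overlapped no other group, and the log2 fold change over naive cells was 2.87 ± 0.17 (adjusted p 3.3e-60). Treg stood above its Pms1 inputs of 18.6 and 11.4 CPM, and naive cells below theirs of 11.3 and 21.

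Rel, which encodes the NF-κB subunit c-Rel, needed for Foxp3 induction in the thymus, was also highest in Treg. Its region at chr11:23639818-23642994 had 5.27 and 3.89 CPM in RA+VitC iTreg, 8.34 and 6.49 in TGFβ iTreg, 19.3 and 19.1 in Treg, against 5 and 3.6 in naive cells. Treg stood above all 6 other libraries, and RA+VitC iTreg overlapped naive cells. Treg exceeded naive cells by 2.18 ± 0.18 on the log2 scale (adjusted p 2.2e-31), and RA+VitC iTreg was lower than Treg by -2.06 ± 0.24 (adjusted p 1.6e-16). The difference between RA+VitC iTreg and naive cells did not pass the test (log2 0.12 ± 0.32, adjusted p 0.81).

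Among the regions that fell in Treg, Nfkbia encodes IκBα, the inhibitor that holds NF-κB in the cytoplasm. Its region at chr12:56590641-56592563 had 7.32 and 8.07 CPM in RA+VitC iTreg, 11.3 and 15.5 in TGFβ iTreg, 4.73 and 3.66 in Treg, against 26.3 and 23.3 in naive cells. All 6 libraries of the other groups lay below both naive libraries, with Treg lowest (log2 -2.56 ± 0.17 over naive cells, adjusted p 2.5e-47). Hs3st3b1, a heparan sulfate sulfotransferase, had 47.5 and 46.3 CPM in RA+VitC iTreg, 40.5 and 39.9 in TGFβ iTreg, 14.1 and 15.7 in Treg, against 84.1 and 87.7 in naive cells over chr11:63702327-63717394. The groups did not overlap, and Treg was lower than naive cells by -2.53 ± 0.11 (adjusted p 4.9e-120).

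Clec2d, whose product is a ligand of the NK cell receptor Nkrp1 family, was lowest in Treg. Over chr6:129134102-129137111 it had 20.5 and 20.6 CPM in RA+VitC iTreg, 14.9 and 15.5 in TGFβ iTreg, 4.22 and 3.31 in Treg, against 18.7 and 19.5 in naive cells (log2 -2.35 ± 0.18 in Treg over naive cells, adjusted p 3.4e-34). Igfbp4, an insulin-like growth factor binding protein that naive T cells express, had 22 and 19.7 CPM in RA+VitC iTreg, 14.9 and 27.9 in TGFβ iTreg, 8.31 and 9.1 in Treg, against 34.7 and 36.9 in naive cells over chr11:98913031-98918029. Both naive libraries were above all others and both Treg libraries below all others. The log2 fold change in Treg over naive cells was -2.04 ± 0.13 (adjusted p 2.8e-48).

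Among regions with enough reads to be named, the strongest rises in the iTreg groups over naive cells were at Krt81, Ldah, Snupn, Fcmr, Shroom3, Rgs1 and Pilra. Snupn encodes snurportin, which carries spliceosomal particles into the nucleus. Its region at chr9:56827793-56832423 had 89.4 and 83.4 CPM in RA+VitC iTreg, 82.2 and 78.8 in TGFβ iTreg, 7.16 and 5.67 in Treg, against 2.31 and 3.6 in naive cells. The 4 iTreg libraries stood far above the 4 sorted ones, and the log2 fold changes over naive cells were 4.72 ± 0.19 in TGFβ iTreg (adjusted p 2.3e-139) and 4.83 ± 0.16 in RA+VitC iTreg (adjusted p 1.2e-197). Krt81, a hair keratin, had 50.7 and 52.3 CPM in RA+VitC iTreg, 32.2 and 54.4 in TGFβ iTreg, 3.45 and 3.31 in Treg, against 0.769 and 1.13 in naive cells over chr15:101288663-101293190 (log2 5.7 ± 0.22 in RA+VitC iTreg over naive cells, adjusted p 3.7e-142). That region also overlaps Krt87, a near copy, so reads cannot be given to one of them with certainty.

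Ldah, a lipid droplet-associated hydrolase, had 26.7 and 26.6 CPM in RA+VitC iTreg, 51.8 and 53.9 in TGFβ iTreg, 4.22 and 5.67 in Treg, against 1.03 and 1.44 in naive cells over chr12:8237295-8238417. All 4 groups were separate, with TGFβ iTreg highest (log2 5.37 ± 0.24 over naive cells, adjusted p 1.7e-106). Shroom3, an actin-binding protein of epithelial shape change, had 54.2 and 52.9 CPM in RA+VitC iTreg, 88.8 and 114 in TGFβ iTreg, 6.39 and 4.84 in Treg, against 4.36 and 4.21 in naive cells over chr5:93390245-93396764. Fcmr, the Fc receptor for IgM, had 30.5 and 32 CPM in RA+VitC iTreg, 45.3 and 45.9 in TGFβ iTreg, 7.54 and 10.7 in Treg, against 2.31 and 1.44 in naive cells over chr1:132775257-132777409. In both genes TGFβ iTreg was the highest group, at log2 4.57 ± 0.16 (adjusted p 3.2e-169) and 4.63 ± 0.24 (adjusted p 9.1e-83) over naive cells.

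Pilra, an inhibitory receptor of myeloid cells, was among the 5 strongest named rises in RA+VitC iTreg, with 45.7 and 38.9 CPM there, 31.6 and 41.4 in TGFβ iTreg, 4.73 and 4.02 in Treg, against 1.67 and 2.36 in naive cells over chr5:138264651-138268847 (log2 4.35 ± 0.2 over naive cells, adjusted p 2e-99). Several rises set the induced groups apart from sorted Treg. Nampt, the enzyme of NAD salvage, had 48.3 and 44.8 CPM in RA+VitC iTreg, 76.3 and 75.8 in TGFβ iTreg, 7.54 and 4.72 in Treg, against 4.1 and 4.01 in naive cells over chr12:33536012-33539013. Naa40, an acetyltransferase of histone N-termini, stood at 35.2 and 20.6 CPM in RA+VitC iTreg, 51.2 and 57.4 in TGFβ iTreg, 2.94 and 3.19 in Treg, against 2.69 and 4.52 in naive cells over chr19:7299578-7301886. TGFβ iTreg exceeded Treg by 3.64 ± 0.17 at Nampt (adjusted p 5.5e-101) and by 4.14 ± 0.21 at Naa40 (adjusted p 9.1e-86).

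A pair of RNA- and protein-handling genes marked RA+VitC iTreg over Treg. Tgs1, which trimethylates the caps of small nuclear RNAs, had 62.7 and 58 CPM in RA+VitC iTreg, 28.6 and 33.4 in TGFβ iTreg, 5.5 and 6.14 in Treg, against 3.97 and 4.52 in naive cells over chr4:3543005-3548964. Edem2, a factor of endoplasmic reticulum-associated degradation, had 85 and 74.4 CPM in RA+VitC iTreg, 44.7 and 42.9 in TGFβ iTreg, 8.56 and 7.68 in Treg, against 5.26 and 4.93 in naive cells over chr2:155527327-155531837. At both genes the groups ran in the same order with no overlap between the iTreg and the sorted libraries. The log2 fold changes in RA+VitC iTreg over Treg were 3.37 ± 0.15 (adjusted p 2.6e-102) and 3.29 ± 0.14 (adjusted p 2.6e-125).

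Among the regions named for the largest changes, falls in the induced groups were smaller than rises. Over all tested 3′ UTR regions the extremes were alike. They were 7.2 and -7.23 in TGFβ iTreg and 6.73 and -6.77 in RA+VitC iTreg over naive cells. Egr1, an immediate-early transcription factor of T cell receptor signalling, had 23.1 and 31.4 CPM in RA+VitC iTreg, 19.1 and 24.4 in TGFβ iTreg, 70.3 and 76.9 in Treg, against 74.2 and 77.1 in naive cells over chr18:35021929-35026756. Every iTreg library lay below every sorted one. TGFβ iTreg was lower by -1.78 ± 0.16 than naive cells (adjusted p 1.9e-27) and by -1.74 ± 0.16 than Treg (adjusted p 1.2e-25). Rtp4, an interferon-induced gene, had 12.3 and 13.5 CPM in RA+VitC iTreg, 19.7 and 25.4 in TGFβ iTreg, 31.1 and 28.9 in Treg, against 51.4 and 50.8 in naive cells over chr16:23610947-23618342. The 4 groups of Rtp4 did not overlap, and RA+VitC iTreg was lower than naive cells by -1.99 ± 0.15 (adjusted p 1.2e-36).

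Xaf1, also known as an interferon-inducible gene, was lowest in RA+VitC iTreg as well: chr11:72119351-72122423 had 3.52 and 4.18 CPM there, 10.7 and 8.48 in TGFβ iTreg, 11.9 and 12.2 in Treg, against 14.1 and 12.2 in naive cells. Its log2 fold change in RA+VitC over TGFβ iTreg was -1.3 ± 0.38 (adjusted p 0.014), a call that was lost when any 1 of those 4 libraries was left out (log2 -1.42 to -1.11). Arhgap20, a GTPase-activating protein, was the named region lowest in RA+VitC iTreg against Treg. Over chr9:51628990-51663521, which also overlaps Arhgap20os, it had 36.6 and 39.5 CPM in RA+VitC iTreg, 71.5 and 59.9 in TGFβ iTreg, 195 and 196 in Treg, against 79.7 and 79.3 in naive cells. Treg alone stood high, and RA+VitC iTreg was lower than Treg by -2.36 ± 0.1 (adjusted p 2.5e-112).

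The remaining regions named by the rule for the largest changes gave the following fold changes. In TGFβ iTreg over naive cells, Rflnb, Ankrd63, Itpr2 (an IP3 receptor) and Itm2a fell, with log2 -1.92, -1.77, -1.66 and -1.62. In RA+VitC iTreg over naive cells, Slc1a1 (a glutamate transporter), Myo3b and Uox (urate oxidase) fell, with log2 -2.12, -1.93 and -1.84. In TGFβ iTreg over Treg, Cbx6 (a Polycomb protein) and Slc35d1 (a nucleotide sugar transporter) fell, with log2 -1.47 and -1.46. In RA+VitC iTreg over Treg, Scg3, Fdx1 (a mitochondrial ferredoxin) and Glcci1 fell, with log2 -2.02, -1.78 and -1.77. Adjusted p-values of these 12 calls were at most 8.6e-06.

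**Figure D3:**
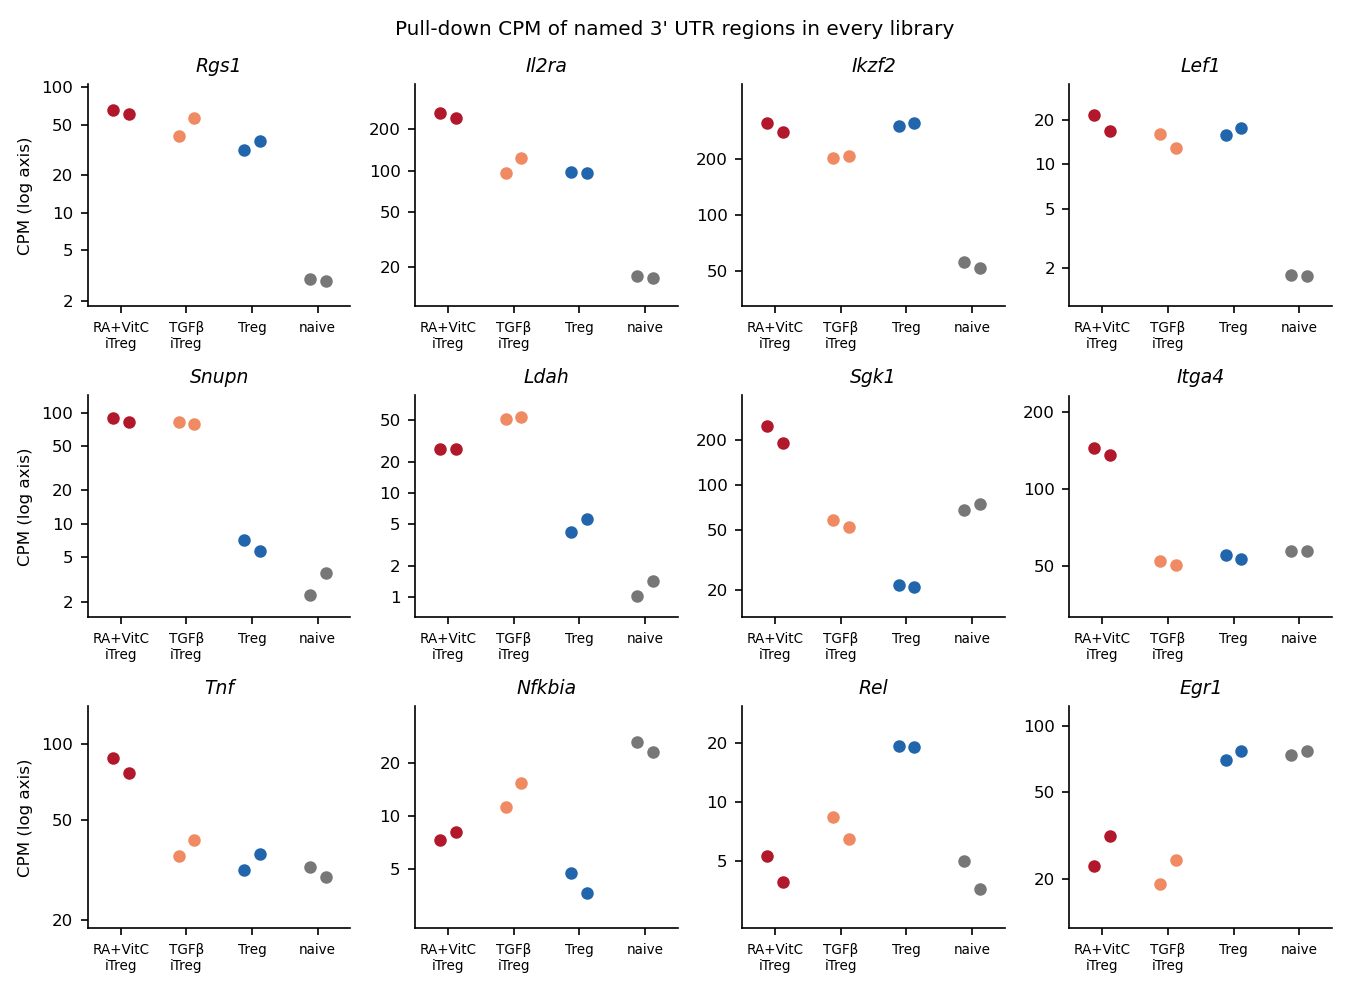
CPM (log axis) of 12 3′ UTR regions in each pull-down library, with 2 points per group. Il2ra, Rgs1, Ikzf2 and the short Lef1 region lie low in naive cells alone, Snupn and Ldah lie high in both iTreg groups, Sgk1, Itga4 and Tnf lie highest in RA+VitC iTreg, Rel lies highest in Treg, Nfkbia lies highest in naive cells, and Egr1 lies low in both iTreg groups.

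RA+VitC iTreg and TGFβ iTreg differ by the addition of retinoic acid and vitamin C together, so the 2 agents cannot be told apart. Among regions with enough reads to be named, the largest rise was at Sgk1. Over all tested 3′ UTR regions the highest log2 fold change was 7.11. Sgk1 is a kinase of salt and growth factor signalling known for its part in the balance between Th17 cells and Treg. Its region at chr10:21715239-21721225 had 250 and 193 CPM in RA+VitC iTreg, 59 and 52.9 in TGFβ iTreg, 21.5 and 21 in Treg, against 68.2 and 75.4 in naive cells. RA+VitC iTreg stood above all other libraries and Treg below all others. Log2 fold changes were 1.99 ± 0.12 in RA+VitC over TGFβ iTreg (adjusted p 5.5e-62), 3.38 ± 0.1 in RA+VitC iTreg over Treg (adjusted p 1.3e-251) and -1.76 ± 0.1 in Treg over naive cells (adjusted p 5e-61).

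Agps, an enzyme of ether lipid synthesis, followed with 94.3 and 82.5 CPM in RA+VitC iTreg, 27.4 and 24.4 in TGFβ iTreg, 13 and 11.7 in Treg, against 3.72 and 6.99 in naive cells over chr2:75731128-75735000 (log2 1.78 ± 0.15 over TGFβ iTreg, adjusted p 4.5e-27). Nod2, a sensor of bacterial peptidoglycan, differed in another way: chr8:91208904-91211809 had 18.5 and 20 CPM in RA+VitC iTreg, 5.36 and 6.49 in TGFβ iTreg, 14.6 and 14.2 in Treg, against 15.6 and 13.5 in naive cells. RA+VitC iTreg lay above and TGFβ iTreg below all libraries of Treg and naive cells there (log2 1.68 ± 0.3 in RA+VitC over TGFβ iTreg, adjusted p 3.1e-06). Arhgap27, a GTPase-activating protein, was likewise lowest in TGFβ iTreg, with 22.6 and 21.8 CPM in RA+VitC iTreg, 9.53 and 5.49 in TGFβ iTreg, 18.1 and 21.9 in Treg, against 19.2 and 20.3 in naive cells over chr11:103193272-103196563. Rab20, a small GTPase of the endocytic pathway, rose by 1.77 ± 0.25 in RA+VitC over TGFβ iTreg (adjusted p 2.3e-10).

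Regions lower in RA+VitC than in TGFβ iTreg were fewer. Mkln1, which encodes muskelin, had 29 and 29.6 CPM in RA+VitC iTreg, 65.5 and 77.8 in TGFβ iTreg, 6.65 and 5.2 in Treg, against 4.74 and 5.14 in naive cells over chr6:31435945-31440450. The iTreg groups did not overlap each other or the sorted cells (log2 -1.3 ± 0.15 in RA+VitC over TGFβ iTreg, adjusted p 9.8e-16). Fap (a membrane serine protease), Camk4 (a calcium/calmodulin-dependent kinase) and Pard3b (a polarity protein) fell by 1.11, 1.08 and 1.06 on the log2 scale, with adjusted p at most 3.1e-05. The Camk4 call was lost without TGFβ iTreg replicate 3-5, where its log2 fold change was -0.68.

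Treg against naive cells and RA+VitC against TGFβ iTreg use no library in common. Of the 1618 and 536 regions called in them, 224 were called in both, which is 13.8% of the Treg over naive calls and 41.8% of the RA+VitC over TGFβ calls. Of these 224 regions, 97 were higher in both comparisons, 31 were lower in both, 71 were lower in Treg and higher in RA+VitC iTreg, and 25 were higher in Treg and lower in RA+VitC iTreg. Il2ra belongs to the 97 and Sgk1 to the 71. Among all 135412 tested regions, 31321 and 8909 were called and 3516 in both, which is 11.2% of the Treg over naive calls and 39.5% of the RA+VitC over TGFβ calls, close to the shares of the 3′ UTR regions. The direction was shared by 128 of the 224 (57.1%) and by 2231 of the 3516 (63.5%). This overlap is a count with no test, and both comparisons call wide regions with many reads more often.

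Gene lists were described by their counts and medians beside the median of all tested regions, which lay between -0.05 and 0.02 in the 6 comparisons. Of all tested regions, 13% were higher and 10.1% lower in Treg over naive cells. The shares were 13.1% and 8.28% in TGFβ iTreg and 21.9% and 15.8% in RA+VitC iTreg over naive cells. They were 4.6% and 1.98% in RA+VitC over TGFβ iTreg. Over Treg they were 9.55% and 5.88% in TGFβ iTreg and 17.8% and 11.4% in RA+VitC iTreg. List counts were not matched on width or reads. The Treg signature list holds 34 genes, of which 18 have a 3′ UTR region, with 25 of 27 such regions tested. Foxp3, Ctla4 and Ikzf4 have none. In Treg over naive cells 17 of the 25 regions were higher and 0 lower (median log2 0.95), in TGFβ iTreg 13 were higher and 0 lower (1.24), and in RA+VitC iTreg 14 were higher and 1 lower (0.85). DESeq2 called 9 higher and 0 lower in Treg over naive cells. Between RA+VitC and TGFβ iTreg 3 were higher and 2 lower (-0.01). Against Treg, 6 were higher and 5 lower in TGFβ iTreg (-0.06), and 10 higher and 9 lower in RA+VitC iTreg (0.1, or -0.15 with plain library sizes).

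Beside Il2ra, Rgs1 and Ikzf2, several members of the Treg list were called. Cd83, a surface molecule of activated cells, had 34.9 and 35 CPM in RA+VitC iTreg, 46.5 and 53.4 in TGFβ iTreg, 69.8 and 74.1 in Treg, against 30 and 24.6 in naive cells over chr13:43880752-43895065 (log2 1.41 ± 0.1 in Treg over naive cells, adjusted p 4.2e-45). Tnfrsf18, which encodes GITR, had 59.8 and 63.1 CPM in RA+VitC iTreg, 50.6 and 68.8 in TGFβ iTreg, 27.9 and 26.6 in Treg, against 22.2 and 21.5 in naive cells over chr4:155401168-155405840. Its rise over naive cells was 1.47 ± 0.14 in TGFβ iTreg (adjusted p 1.3e-22), against 0.32 ± 0.12 in Treg (adjusted p 0.033), and TGFβ iTreg exceeded Treg by 1.15 ± 0.14 (adjusted p 1.3e-14).

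Prdm1, which encodes Blimp-1, a repressor of effector programmes, had a region at chr10:44159391-44167989 with 64.8 and 74.1 CPM in RA+VitC iTreg, 97.1 and 102 in TGFβ iTreg, 44.1 and 44.7 in Treg, against 41 and 41 in naive cells. It rose in TGFβ iTreg over naive cells by 1.28 ± 0.12 (adjusted p 3.1e-26) and was lower in RA+VitC than in TGFβ iTreg by -0.52 ± 0.12 (adjusted p 0.00068), a call lost without RA+VitC iTreg replicate 3-20 (-0.39) or TGFβ iTreg replicate 3-5 (-0.43). Nt5e, which encodes the ectonucleotidase CD73, had 51.6 and 48.1 CPM in RA+VitC iTreg, 26.2 and 32.9 in TGFβ iTreg, 30.7 and 28.7 in Treg, against 27.1 and 24.3 in naive cells over chr9:88254144-88262678. It exceeded TGFβ iTreg by 0.74 ± 0.17 (adjusted p 0.00049), or by 0.63 without TGFβ iTreg replicate 3-20, where the call was lost. Swap70, a guanine nucleotide exchange factor, was highest in Treg, with 34.6 and 30.8 CPM in RA+VitC iTreg, 44.7 and 44.9 in TGFβ iTreg, 80 and 91.5 in Treg, against 37.2 and 38.8 in naive cells over chr7:117392442-117408307 (log2 -1.39 ± 0.11 in RA+VitC iTreg over Treg, adjusted p 9.3e-32).

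The naive T cell list (22 genes, 16 with a 3′ UTR region, 27 regions tested) gave 2 higher and 12 lower in Treg over naive cells (median log2 -0.19), and 5 higher and 11 lower in TGFβ iTreg over naive cells (-0.41). In RA+VitC iTreg over naive cells 9 were higher and 7 lower (0.21), or 8 and 10 with plain library sizes (-0.02). RA+VitC over TGFβ iTreg gave 9 higher and 1 lower (0.29), or 6 and 2 with plain library sizes (0.1). RA+VitC iTreg over Treg gave 13 higher and 2 lower (0.28), or 8 and 5 with plain library sizes (0.02). TGFβ iTreg over Treg gave 7 and 8 (-0.11).

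Bach2, a repressor that restrains effector differentiation, was called in both iTreg groups over naive cells. Its region at chr4:32666628-32676429 had 118 and 105 CPM in RA+VitC iTreg, 64.3 and 81.8 in TGFβ iTreg, 40.1 and 42.5 in Treg, against 37.8 and 41.6 in naive cells. RA+VitC iTreg was the highest group and the sorted groups overlapped (log2 1.48 ± 0.1 in RA+VitC iTreg over naive cells, adjusted p 8.8e-50; 0.6 ± 0.12 over TGFβ iTreg, adjusted p 4e-05). Treml2, a receptor of the TREM family, had 144 and 117 CPM in RA+VitC iTreg, 38.1 and 54.4 in TGFβ iTreg, 44.3 and 40.5 in Treg, against 62.2 and 62.5 in naive cells over chr17:48440993-48452313. RA+VitC iTreg exceeded TGFβ iTreg by 1.47 ± 0.13 (adjusted p 8.3e-27). Klf2, which controls lymphocyte trafficking, and Ccr7, the chemokine receptor of lymph node entry, were higher in RA+VitC than in TGFβ iTreg by 0.58 ± 0.11 (adjusted p 1.9e-05) and 0.28 ± 0.08 (adjusted p 0.0083).

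Lef1, a transcription factor of naive and memory T cells, held regions that moved in opposite directions. The table splits the gene into a wide region at chr3:130820679-130911125 and a narrow one beside it at chr3:130817365-130820463, which lies near the start of the transcript named in the table. The wide region had 1335 and 1149 CPM in RA+VitC iTreg, 778 and 947 in TGFβ iTreg, 1012 and 1037 in Treg, against 1463 and 1463 in naive cells. The narrow one had 21.7 and 16.7 CPM in RA+VitC iTreg, 16.1 and 13 in TGFβ iTreg, 15.7 and 17.5 in Treg, against 1.79 and 1.75 in naive cells. In Treg over naive cells the wide region was lower by -0.51 ± 0.07 (adjusted p 2.2e-12) and the narrow one higher by 3.22 ± 0.22 (adjusted p 8e-44). Both carry the 3′ UTR mark of the table.

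The T cell activation list (32 genes, 20 with a 3′ UTR region, 24 of 25 regions tested) gave 6 higher and 5 lower in Treg over naive cells (median log2 0.12), 4 and 5 in TGFβ iTreg over naive cells (-0.04), and 9 and 4 in RA+VitC iTreg over naive cells (0.25), or 7 and 7 with plain library sizes (0.02). RA+VitC over TGFβ iTreg gave 6 higher and 1 lower (0.32). TGFβ iTreg over Treg gave 2 and 5 (-0.13), and RA+VitC iTreg over Treg 9 and 5 (0.15, or -0.11 with plain library sizes). Bhlhe40, a basic helix-loop-helix factor of activated T cells, had 105 and 108 CPM in RA+VitC iTreg, 73.3 and 81.8 in TGFβ iTreg, 45.1 and 46.8 in Treg, against 11.3 and 13.7 in naive cells over chr6:108611806-108619760. The groups did not overlap, and the rise over naive cells was 3.07 ± 0.12 in RA+VitC iTreg (adjusted p 2.5e-144) and 1.87 ± 0.12 in Treg (adjusted p 1.2e-50). Irf4, a factor of antigen receptor signalling, had 57.7 and 60.1 CPM in RA+VitC iTreg, 33.4 and 38.9 in TGFβ iTreg, 28.8 and 28.7 in Treg, against 27.4 and 27.6 in naive cells over chr13:30853386-30859915 (log2 0.7 ± 0.15 in RA+VitC over TGFβ iTreg, adjusted p 0.00037).

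Batf, the AP-1 factor that partners Irf4, was highest in Treg, with 21.7 and 19.4 CPM in RA+VitC iTreg, 13.1 and 13.5 in TGFβ iTreg, 27 and 28 in Treg, against 14.4 and 12.7 in naive cells over chr12:87047046-87050844. It rose by 1.03 ± 0.13 in Treg over naive cells (adjusted p 1.3e-13). Egr3, another immediate-early factor, was high in iTreg where Egr1 was low: its short region at chr14:70482363-70482676 had 5.86 and 5.08 CPM in RA+VitC iTreg, 8.34 and 17.5 in TGFβ iTreg, 1.79 and 1.18 in Treg, against 0.897 and 0.617 in naive cells. TGFβ iTreg exceeded naive cells by 4.12 ± 0.41 (adjusted p 5e-22), with the 2 TGFβ iTreg libraries far from each other.

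A list of mRNAs known for control through their 3′ UTR in T cells holds 33 genes, 21 with a region, and 25 of 27 regions were tested. It shares Il2ra and Icos with the Treg list, Ccr7 and Foxo1 with the naive list, and Cd69, Ifng, Irf4, Myc and Rel with the activation list. In RA+VitC over TGFβ iTreg 8 of the 25 regions were higher and 0 lower (median log2 0.35), or 4 and 0 with plain library sizes (0.17). In RA+VitC iTreg 13 were higher and 3 lower than in naive cells (0.42), and 12 higher and 2 lower than in Treg (0.54). In TGFβ iTreg 5 were higher and 3 lower than in naive cells (0.05), and 4 higher and 2 lower than in Treg (0.19). Treg over naive cells gave 4 higher and 7 lower (-0.03).

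Tnf, whose mRNA is destabilised through an AU-rich element, had 87.9 and 76.5 CPM in RA+VitC iTreg, 35.7 and 41.4 in TGFβ iTreg, 31.4 and 36.4 in Treg, against 32.3 and 29.6 in naive cells over chr17:35333358-35337332. RA+VitC iTreg alone was high, by 1.08 ± 0.14 over TGFβ iTreg (adjusted p 1.7e-11), while TGFβ iTreg overlapped Treg and Treg overlapped naive cells. Myc, the growth regulator, had 76.2 and 80.4 CPM in RA+VitC iTreg, 34 and 52.9 in TGFβ iTreg, 45.4 and 46.3 in Treg, against 55 and 54.4 in naive cells over chr15:61820308-61827132 (log2 0.83 ± 0.14 in RA+VitC over TGFβ iTreg, adjusted p 7.4e-07). Cdkn1b, which encodes the cell cycle inhibitor p27, had 58 and 48.7 CPM in RA+VitC iTreg, 35.7 and 59.4 in TGFβ iTreg, 19.4 and 21.4 in Treg, against 24.2 and 22.9 in naive cells over chr6:134873363-134876713. It rose by 1.18 ± 0.12 in RA+VitC iTreg over naive cells (adjusted p 1.4e-20), while the rise of 1.04 ± 0.15 in TGFβ iTreg was not called without TGFβ iTreg replicate 3-5 (0.58).

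Bcl2, the survival factor, was higher in RA+VitC iTreg than in Treg by 0.93 ± 0.1 (adjusted p 9.7e-19), with 95.2 and 88.5 CPM there, 64.9 and 62.4 in TGFβ iTreg, 54.8 and 42.2 in Treg, against 65.8 and 65.5 in naive cells over chr1:108436003-108447637. Bcl6, a transcriptional repressor that drives Tfh differentiation, was lower in TGFβ iTreg than in Treg by -1.01 ± 0.21 (adjusted p 4.6e-05), with 17.9 and 14.9 CPM in RA+VitC iTreg, 11.3 and 14.5 in TGFβ iTreg, 25.8 and 26.7 in Treg, against 22.4 and 23.9 in naive cells over chr16:23962731-23970512.

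Among 3′ end processing factors, which cleave and polyadenylate mRNAs, 22 of 23 regions of 13 genes were tested, and each comparison called at most 5. In the order Treg, TGFβ iTreg and RA+VitC iTreg over naive cells, RA+VitC over TGFβ iTreg, and TGFβ and RA+VitC iTreg over Treg, the higher and lower counts were 1 and 0, 2 and 2, 3 and 2, 1 and 0, 1 and 2, and 2 and 1. Cstf3, a subunit of the cleavage stimulation factor, held 2 regions. The one at chr2:104446851-104449387 had 13.2 and 13.8 CPM in RA+VitC iTreg, 7.15 and 5.99 in TGFβ iTreg, 4.98 and 6.97 in Treg, against 5.77 and 6.58 in naive cells, and rose in RA+VitC iTreg by 1.11 ± 0.22 over naive cells (adjusted p 4.2e-06).

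Proteins that bind AU-rich or stem-loop elements (21 of 26 regions of 13 genes tested) gave, in the same order, 3 and 3, 0 and 2, 1 and 1, 1 and 0, 0 and 1, and 0 and 2. Zc3h12d, a relative of the endonuclease Regnase-1, had 11.4 and 11.4 CPM in RA+VitC iTreg, 12.5 and 9.48 in TGFβ iTreg, 16.2 and 18.1 in Treg, against 8.08 and 9.04 in naive cells over chr10:7587977-7592033, and rose in Treg over naive cells by 1 ± 0.16 (adjusted p 7.5e-09). Zfp36l1, which promotes decay of AU-rich mRNAs, was lower in TGFβ iTreg than in naive cells by -0.78 ± 0.13 (adjusted p 3.9e-08), with 62.7 and 75.6 CPM in RA+VitC iTreg, 39.9 and 51.9 in TGFβ iTreg, 54.8 and 62 in Treg, against 78.5 and 80.9 in naive cells over chr12:81203523-81211866.

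MicroRNA machinery (9 of 11 regions of 7 genes tested) gave 1 and 1, 0 and 0, 1 and 0, 0 and 0, 0 and 1, and 1 and 1. Its calls were at Tnrc6a, a scaffold of the silencing complex, Drosha, the nuclear processing enzyme, and Dicer1, the cytoplasmic one. Tnrc6a had 14.9 and 20.3 CPM in RA+VitC iTreg, 16.7 and 12.5 in TGFβ iTreg, 25.4 and 22.9 in Treg, against 14 and 13.9 in naive cells over chr7:130331236-130338436, and rose in Treg over naive cells by 0.79 ± 0.13 (adjusted p 5.3e-08). Treg was the highest group of Tnrc6a. Dicer1 had 25.5 and 24.2 CPM in RA+VitC iTreg, 17.9 and 16.5 in TGFβ iTreg, 18.4 and 19 in Treg, against 13.8 and 16.5 in naive cells over chr12:105922798-105931839, and rose in RA+VitC iTreg over naive cells by 0.7 ± 0.16 (adjusted p 6.8e-05). Drosha held few reads, with 2.64 and 2.09 CPM in RA+VitC iTreg, 4.17 and 2.49 in TGFβ iTreg, 2.3 and 2.13 in Treg, against 5.13 and 3.29 in naive cells over chr15:12864064-12865712. It was lower in Treg than in naive cells by -0.89 ± 0.31 (adjusted p 0.02), a call that was lost without Treg replicate 1 (-0.95), Treg replicate 2 (-0.83) or naive replicate 1 (-0.58).

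Among genes of DNA methylation and TET activity, 18 of 21 regions of 16 genes were tested. In Treg over naive cells 7 were higher and 2 lower (median log2 0.34), of which DESeq2 called 1 and 0. In the iTreg groups the counts were 2 and 2 for TGFβ (-0.22) and 5 and 4 for RA+VitC (-0.1) over naive cells, 2 and 4 for TGFβ (-0.77) and 2 and 6 for RA+VitC (-0.51) over Treg, and 1 and 0 for RA+VitC over TGFβ iTreg (0.12, or -0.06 with plain library sizes). Dnmt3l, a catalytically inactive partner of the de novo methyltransferases, had 65 and 55.6 CPM in RA+VitC iTreg, 66.1 and 70.3 in TGFβ iTreg, 14.8 and 12.8 in Treg, against 5.13 and 6.78 in naive cells over chr10:77524955-77527829. Every iTreg library lay above Treg, and Treg above naive cells (log2 3.5 ± 0.17 in TGFβ iTreg over naive cells, adjusted p 1e-89; 1.18 ± 0.18 in Treg, adjusted p 1.3e-09).

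Dnmt3a, a de novo methyltransferase, was lowest in the iTreg groups, with 6.45 and 6.58 CPM in RA+VitC iTreg, 7.15 and 6.98 in TGFβ iTreg, 16.9 and 15.5 in Treg, against 10.8 and 10.6 in naive cells over chr12:3904275-3908586. It was lower in RA+VitC iTreg than in Treg by -1.31 ± 0.22 (adjusted p 9.1e-08). Tet3, one of the enzymes that make 5hmC, had 28.4 and 31.1 CPM in RA+VitC iTreg, 19.7 and 20.5 in TGFβ iTreg, 40.6 and 41.6 in Treg, against 34.7 and 33.2 in naive cells over chr6:83313007-83320901, and was lower in TGFβ iTreg than in Treg by -1.03 ± 0.18 (adjusted p 1.7e-07). RA+VitC iTreg did not overlap TGFβ iTreg at Tet3, but the difference missed the threshold (log2 0.57 ± 0.21, adjusted p 0.075). Mbd2, a reader of methylated DNA, was the 1 call between the iTreg groups, with 218 and 223 CPM in RA+VitC iTreg, 107 and 136 in TGFβ iTreg, 119 and 131 in Treg, against 141 and 145 in naive cells over chr18:70729530-70743996 (log2 0.85 ± 0.1, adjusted p 1.1e-14).

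For retinoic acid response genes, only 7 of 24 listed genes had a 3′ UTR region and 6 of 10 regions were tested; Rara and Itgb7 had none. In RA+VitC over TGFβ iTreg 3 of the 6 were higher and 0 lower, 1 and 0 with plain library sizes. Itga4, the α4 chain of the gut-homing integrin that retinoic acid induces, accounts for 2 of them. Its wider region at chr2:79102381-79113518 had 145 and 136 CPM in RA+VitC iTreg, 52.4 and 50.4 in TGFβ iTreg, 55.2 and 53.3 in Treg, against 57.4 and 57.1 in naive cells. RA+VitC iTreg alone was high (log2 1.45 ± 0.13 over TGFβ iTreg, adjusted p 1.3e-27). Its other region, at chr2:79097474-79099368, was higher in RA+VitC than in TGFβ iTreg by 0.97 (adjusted p 0.011), a call that was lost without RA+VitC iTreg replicate 3-20 (0.92) or TGFβ iTreg replicate 3-20 (0.62), with plain library sizes (0.78), when thinned to the shallowest library (0.59) and with DESeq2 (0.97). Ccr9, the gut-homing chemokine receptor, was lowest in TGFβ iTreg, with 10.8 and 12.9 CPM in RA+VitC iTreg, 5.96 and 4.99 in TGFβ iTreg, 12.7 and 12.5 in Treg, against 16.2 and 14.3 in naive cells over chr9:123692372-123694922, which also overlaps Fyco1. Its log2 fold change of 1.12 ± 0.35 in RA+VitC over TGFβ iTreg (adjusted p 0.024) was not called without RA+VitC iTreg replicate 3-5 (1.04), TGFβ iTreg replicate 3-20 (1.27) or TGFβ iTreg replicate 3-5 (1.04).

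The other counts for retinoic acid genes over naive cells were 2 and 0 in RA+VitC iTreg, 0 and 1 in TGFβ iTreg and 0 and 0 in Treg, and over Treg 2 and 0 in RA+VitC iTreg against 0 and 1 in TGFβ iTreg. For the TGFβ pathway (26 genes, 17 with a region, 23 of 26 regions tested) the counts over naive cells were 6 and 5 in Treg, 6 and 6 in TGFβ iTreg (median log2 -0.47) and 4 and 5 in RA+VitC iTreg. Over Treg they were 5 and 6 in RA+VitC iTreg and 3 and 4 in TGFβ iTreg, and RA+VitC over TGFβ iTreg gave 4 and 0 (0.1), or 1 and 2 with plain library sizes (-0.08). Tgfbr2, the type II receptor, had 354 and 338 CPM in RA+VitC iTreg, 202 and 209 in TGFβ iTreg, 259 and 265 in Treg, against 369 and 363 in naive cells over chr9:115996235-116046918. TGFβ iTreg was the lowest group, and RA+VitC iTreg exceeded it by 0.75 ± 0.09 (adjusted p 2.6e-14). The difference between RA+VitC iTreg and naive cells did not pass the test (log2 -0.08 ± 0.07, adjusted p 0.41).

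Tgfbr1, the type I receptor, rose in Treg over naive cells by 1.32 ± 0.2 (adjusted p 1.1e-09), with 7.32 and 8.07 CPM in RA+VitC iTreg, 12.5 and 11 in TGFβ iTreg, 11.2 and 11.8 in Treg, against 4.49 and 4.73 in naive cells over chr4:47422463-47425886. Tgfbr3, the co-receptor betaglycan, fell in all 3 groups against naive cells, with 26.4 and 19.1 CPM in RA+VitC iTreg, 28 and 29.9 in TGFβ iTreg, 43.3 and 41.7 in Treg, against 73.6 and 72.5 in naive cells over chr5:107576976-107582999 (log2 -1.68 in RA+VitC iTreg, -1.33 in TGFβ iTreg and -0.78 in Treg). Itgav, an integrin chain that activates latent TGFβ, had 81.2 and 71.4 CPM in RA+VitC iTreg, 54.2 and 54.4 in TGFβ iTreg, 30.7 and 26.2 in Treg, against 19.1 and 16.3 in naive cells over chr2:83581511-83588985. The groups of Itgav did not overlap, and the rise over naive cells was 2.12 ± 0.12 in RA+VitC iTreg (adjusted p 2.4e-68). Ski, a repressor of SMAD signalling, was lower in TGFβ iTreg than in Treg by -1.15 ± 0.13 (adjusted p 2.5e-17), with 67.4 and 67 CPM in RA+VitC iTreg, 41.7 and 48.4 in TGFβ iTreg, 96.2 and 105 in Treg, against 90 and 93.8 in naive cells over chr4:154522631-154536058.

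**Figure D4:**
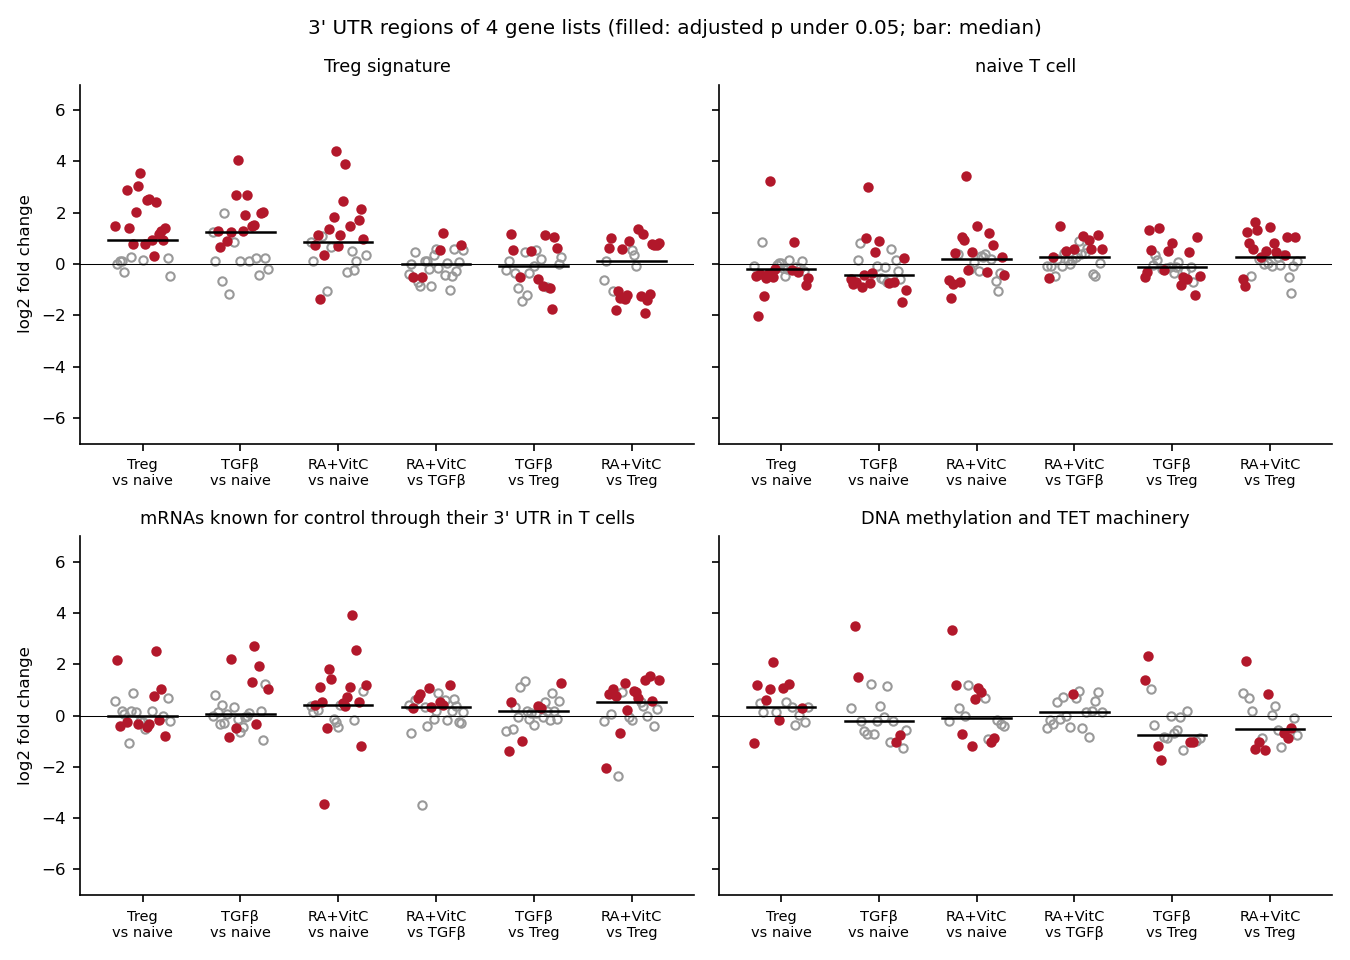
Log2 fold changes of the tested 3′ UTR regions of 4 gene lists in the 6 comparisons, with filled points for an adjusted p under 0.05, open points for the rest and a bar for the median. The Treg signature shows 17 higher and 0 lower calls among 25 regions in Treg over naive cells, where 13% and 10.1% of all tested regions were called. The list of mRNAs controlled through their 3′ UTR shows 8 higher and 0 lower calls among 25 regions in RA+VitC over TGFβ iTreg, against 4.6% and 1.98% of all tested regions.

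Markers of other cell types are read here as 5hmC over the gene, not as expression. The summed CPM of 2 tested B cell regions was 2.34 and 3.59 in RA+VitC iTreg, 3.57 and 3.49 in TGFβ iTreg, 3.19 and 4.37 in Treg, against 2.44 and 3.19 in naive cells. For 5 myeloid and dendritic cell regions it was 22 and 23.6 in RA+VitC iTreg, 34.6 and 38.9 in TGFβ iTreg, 24.9 and 25.6 in Treg, against 18.2 and 17.7 in naive cells. Of these 5, Zbtb46, a dendritic cell factor, held 2: the one at chr2:181144262-181146082 had 11.1 and 14.3 CPM in RA+VitC iTreg, 17.9 and 23.9 in TGFβ iTreg, 10.9 and 11.3 in Treg, against 4.49 and 4.42 in naive cells. It was higher than in naive cells in all 3 groups, by 1.51 in RA+VitC iTreg, 2.24 in TGFβ iTreg and 1.32 in Treg. Over the 5 regions the median log2 fold change against naive cells was 0.2 for RA+VitC iTreg, 0.84 for TGFβ iTreg and -0.25 for Treg. The calls for RA+VitC iTreg over naive cells were 1 higher, at Zbtb46, and 1 lower, at Itgam. For 4 CD8 and NK cell regions the sum was 9.96 and 13.2 in RA+VitC iTreg, 9.53 and 20 in TGFβ iTreg, 11.4 and 9.57 in Treg, against 10.8 and 13.1 in naive cells. Each of the 3 marker lists had 1 or 2 higher and at most 1 lower call in Treg over naive cells, and 1 higher and 0 lower in TGFβ iTreg over naive cells. One of these, Klrk1 in TGFβ iTreg (log2 0.97), turned to -0.24 without TGFβ iTreg replicate 3-5. The part of other cells in any result was not tested.

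Whether a 3′ UTR region changed in step with its gene was asked with edgeR's diffSpliceDGE, which sets the log2 fold change of a region against that of all tested reads of the same symbol. The symbol is that of the nearest transcript, so intergenic regions count with the gene they lie nearest to. For Rgs1 this makes 36 regions. With only regions on transcript parts, Treg over naive cells gave 562 calls, and all 6 counts stayed within 1.5 times. This could be done for 6503 regions of 5037 genes. In Treg over naive cells 411 regions lay above and 264 below their gene (10.4%, against 11.5% of all 122255 regions tested in this way). TGFβ iTreg over naive cells gave 466 and 462 (14.3%, against 15%), and RA+VitC iTreg over naive cells 723 and 939 (25.6%, against 27.7%). RA+VitC over TGFβ iTreg gave 56 and 60 (1.78%, against 1.92%), TGFβ iTreg over Treg 313 and 370 (10.5%, against 10.3%), and RA+VitC iTreg over Treg 507 and 819 (20.4%, against 20.8%). The shares of 3′ UTR regions were near the background in all 6 comparisons. These counts rested on single libraries. Treg over naive cells came to 402 and 355 without Treg replicates 1 and 2, and to 345 and 279 without naive replicates 1 and 2. TGFβ iTreg over naive cells came to 587 and 388 without TGFβ iTreg replicates 3-20 and 3-5, and TGFβ iTreg over Treg to 401 and 255. Without RA+VitC iTreg replicates 3-20 and 3-5, RA+VitC iTreg over naive cells came to 999 and 1049, over TGFβ iTreg to 52 and 59, and over Treg to 687 and 793. Without TGFβ iTreg replicates 3-20 and 3-5, RA+VitC over TGFβ iTreg came to 37 and 33. With all libraries thinned to the depth of the shallowest, Treg over naive cells came to 55, with 2937 regions tested in place of 6503.

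The regions that parted most from their genes included some named above. The Rgs1 region rose by 2.11 more on the log2 scale than its gene in Treg over naive cells (adjusted p 1.6e-25), and the narrow Lef1 region by 3.63 more (adjusted p 2.2e-55). The Nfkbia region fell by 2.72 more than its gene (adjusted p 4.4e-52), and the Clec2d region by 2.07 more (adjusted p 3e-24). Smox, a spermine oxidase, parted upwards in RA+VitC iTreg over naive cells by 3.07 (adjusted p 4.7e-47), with 28.7 and 30.2 CPM in RA+VitC iTreg, 14.3 and 31.4 in TGFβ iTreg, 9.2 and 9.21 in Treg, against 3.08 and 3.49 in naive cells over chr2:131349078-131353134. Polr3b, an RNA polymerase III subunit, parted by 3.12 in TGFβ iTreg over naive cells (adjusted p 5.8e-33), with 38.1 and 34.1 CPM in RA+VitC iTreg, 36.3 and 39.9 in TGFβ iTreg, 3.45 and 4.13 in Treg, against 2.69 and 1.44 in naive cells over chr10:84189473-84191688.

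Myo3b, an unconventional myosin, lay below its gene in Treg, TGFβ iTreg and RA+VitC iTreg over naive cells, by -1.16, -2.61 and -3.26. Its 3′ UTR region at chr2:70262303-70266897 had 6.15 and 5.98 CPM in RA+VitC iTreg, 8.94 and 11.5 in TGFβ iTreg, 12.7 and 11.9 in Treg, against 22.9 and 23.3 in naive cells. Other regions below their gene were those of Anxa3 and Exog in TGFβ iTreg over naive cells (-2.01 and -1.66; the first was lost when only regions on transcript parts stood for the gene), Atp2b4, a plasma membrane calcium pump, and Nek7, a kinase of the NLRP3 inflammasome, in RA+VitC iTreg over naive cells (-2.17 and -1.99), Mdfic and Atp8b1 in TGFβ iTreg over Treg (-1.73 and -1.59), and Myrip in RA+VitC iTreg over Treg (-2.1). Epb41, a membrane skeleton protein, lay 2.02 above its gene in RA+VitC iTreg over Treg. In RA+VitC over TGFβ iTreg, P2rx7, an ATP-gated channel, lay below its gene by -1.14 (adjusted p 0.0015), a call lost without RA+VitC iTreg replicate 3-20 (-0.96), TGFβ iTreg replicate 3-20 (-1.05) or TGFβ iTreg replicate 3-5 (-1.23).

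For 1435 genes with tested regions on the 3′ UTR, the 5′ UTR and introns, levels can be set side by side per length. The median CPM per kb over 3′ UTR regions were 3.09 and 3.08 in RA+VitC iTreg, 3.03 and 3.05 in TGFβ iTreg, 3.14 and 3.12 in Treg, against 3.05 and 3.06 in naive cells. Over 5′ UTR regions of the same genes they were 3.63 and 3.58 in RA+VitC iTreg, 3.18 and 3.3 in TGFβ iTreg, 3.58 and 3.66 in Treg, against 3.62 and 3.66 in naive cells. The 3′ UTR level thus hardly varied between groups, while the 5′ UTR level was lowest in TGFβ iTreg. Over intron regions of these genes the medians were 3.78 and 3.75 in RA+VitC iTreg and 3.35 and 3.52 in TGFβ iTreg. They were 3.49 and 3.56 in Treg, against 3.5 and 3.52 in naive cells. The median log2 ratio of 3′ to 5′ UTR level was -0.183 and -0.134 in RA+VitC iTreg, -0.037 and -0.081 in TGFβ iTreg, -0.147 and -0.159 in Treg, against -0.194 and -0.153 in naive cells. TGFβ iTreg minus naive cells had a median log2 difference of -0.07 over 3′ UTR, -0.21 over 5′ UTR and -0.11 over intron regions. For RA+VitC minus TGFβ iTreg it was 0.06, 0.18 and 0.14, so the shift was not particular to the 5′ UTR.

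Single pairs of a 3′ UTR and a 5′ UTR region of 1 gene were then compared by their calls (4006 pairs of 1974 genes; pairs of a gene share regions). In RA+VitC over TGFβ iTreg both regions were higher in 82 pairs and lower in 2, the 3′ UTR region alone was called in 205 and the 5′ UTR region alone in 546, and the 2 regions were called in opposite directions in 3 and 4 pairs. For Treg over naive cells, both were higher in 161 and lower in 183 pairs, with 31 pairs higher at the 3′ and lower at the 5′ UTR and 27 the other way round. In RA+VitC iTreg over naive cells the counts were 312 and 261 in the same direction and 95 and 94 in opposite ones. No share among pairs of other gene parts stands beside these counts, so they do not show a trait of UTR pairs. With at least 50 mean reads in both regions, the opposite pairs numbered 16 in Treg over naive cells and 80 in RA+VitC iTreg over naive cells. DESeq2 called 1 and 26 of them in opposite directions.

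The pairs described next were chosen after their values were seen, as the widest gaps between the 3′ and 5′ UTR fold changes of their comparisons, and Ksr1 and Ets1 for their clear separation. Il2ra had the widest gap in RA+VitC over TGFβ iTreg: its 5′ UTR region at chr2:11563877-11567653 had 12.6 and 10.8 CPM in RA+VitC iTreg, 68.5 and 79.8 in TGFβ iTreg, 3.71 and 2.01 in Treg, against 5.26 and 4.11 in naive cells. TGFβ iTreg alone was high there, so the 5′ UTR region was lower in RA+VitC than in TGFβ iTreg by -2.67 ± 0.18 (adjusted p 4e-47), while the 3′ UTR region was higher by 1.19. Between Treg and naive cells the 5′ UTR region was lower in Treg by -0.71 (adjusted p 0.041) and the 3′ UTR region higher by 2.52.

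Exog, a mitochondrial nuclease, had 18.2 and 13.5 CPM in RA+VitC iTreg, 13.1 and 14 in TGFβ iTreg, 23.3 and 25.6 in Treg, against 28.7 and 28.7 in naive cells at its 3′ UTR region (chr9:119372770-119377174). Its 5′ UTR region had 44.2 and 45.1 CPM in RA+VitC iTreg, 31 and 35.9 in TGFβ iTreg, 9.46 and 9.33 in Treg, against 10.3 and 12.6 in naive cells. In RA+VitC iTreg over Treg the 3′ UTR region was lower by -0.63 ± 0.16 (adjusted p 0.00099) and the 5′ UTR region at chr9:119354850-119358322 higher by 2.25 ± 0.15 (adjusted p 1.3e-47). Ksr1, a scaffold of MAP kinase signalling, had 13.8 and 15.8 CPM in RA+VitC iTreg, 12.5 and 16 in TGFβ iTreg, 36.4 and 39.3 in Treg, against 36.3 and 33.7 in naive cells at its 3′ UTR region. Its 5′ UTR region had 108 and 98.6 CPM in RA+VitC iTreg, 89.4 and 84.8 in TGFβ iTreg, 57 and 54.1 in Treg, against 29.6 and 31.8 in naive cells. As at Exog, the 5′ and 3′ UTR regions moved in opposite directions: in RA+VitC iTreg over naive cells its 3′ UTR region at chr11:78825178-78831752 was lower by -1.24 ± 0.16 (adjusted p 8.4e-14) and its 5′ UTR region at chr11:78863265-78879068 higher by 1.75 ± 0.1 (adjusted p 9.2e-62).

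Trafd1, a negative regulator of innate immune signalling, had 40.1 and 37.4 CPM in RA+VitC iTreg, 17.9 and 22 in TGFβ iTreg, 9.71 and 10.2 in Treg, against 4.62 and 3.8 in naive cells at its 3′ UTR region. Its 5′ UTR region had 18.8 and 15.2 CPM in RA+VitC iTreg, 14.3 and 17 in TGFβ iTreg, 28.2 and 26.1 in Treg, against 23.6 and 23.4 in naive cells. It showed the reverse in RA+VitC iTreg over naive cells, with its 3′ UTR region at chr5:121819192-121822033 higher by 3.21 ± 0.18 (adjusted p 2e-68) and its 5′ UTR region at chr5:121831003-121834893 lower by -0.47 ± 0.16 (adjusted p 0.014). Zfp365 had 23.1 and 26 CPM in RA+VitC iTreg, 29.8 and 33.4 in TGFβ iTreg, 13 and 9.1 in Treg, against 7.44 and 8.84 in naive cells at its 3′ UTR region. Its 5′ UTR region had 9.96 and 12.6 CPM in RA+VitC iTreg, 5.96 and 13 in TGFβ iTreg, 18.8 and 19.4 in Treg, against 17.2 and 20.2 in naive cells. In TGFβ iTreg over naive cells the changes were 1.95 ± 0.2 (adjusted p 1.6e-20) at chr10:67348302-67351412 and -0.95 ± 0.24 (adjusted p 0.001) at chr10:67373212-67376490. Ets1, a transcription factor of resting T cells, had 207 and 213 CPM in RA+VitC iTreg, 181 and 229 in TGFβ iTreg, 103 and 98 in Treg, against 177 and 173 in naive cells at its 3′ UTR region. Its 5′ UTR region had 30.2 and 28.1 CPM in RA+VitC iTreg, 20.9 and 19.5 in TGFβ iTreg, 31.4 and 33.2 in Treg, against 25.9 and 25.3 in naive cells. It was lower at its 3′ UTR region (chr9:32531415-32555166) in Treg over naive cells by -0.8 ± 0.08 (adjusted p 1.5e-23) and higher at its 5′ UTR region (chr9:32452183-32460206) by 0.34 ± 0.11 (adjusted p 0.013).

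**Figure D5:**
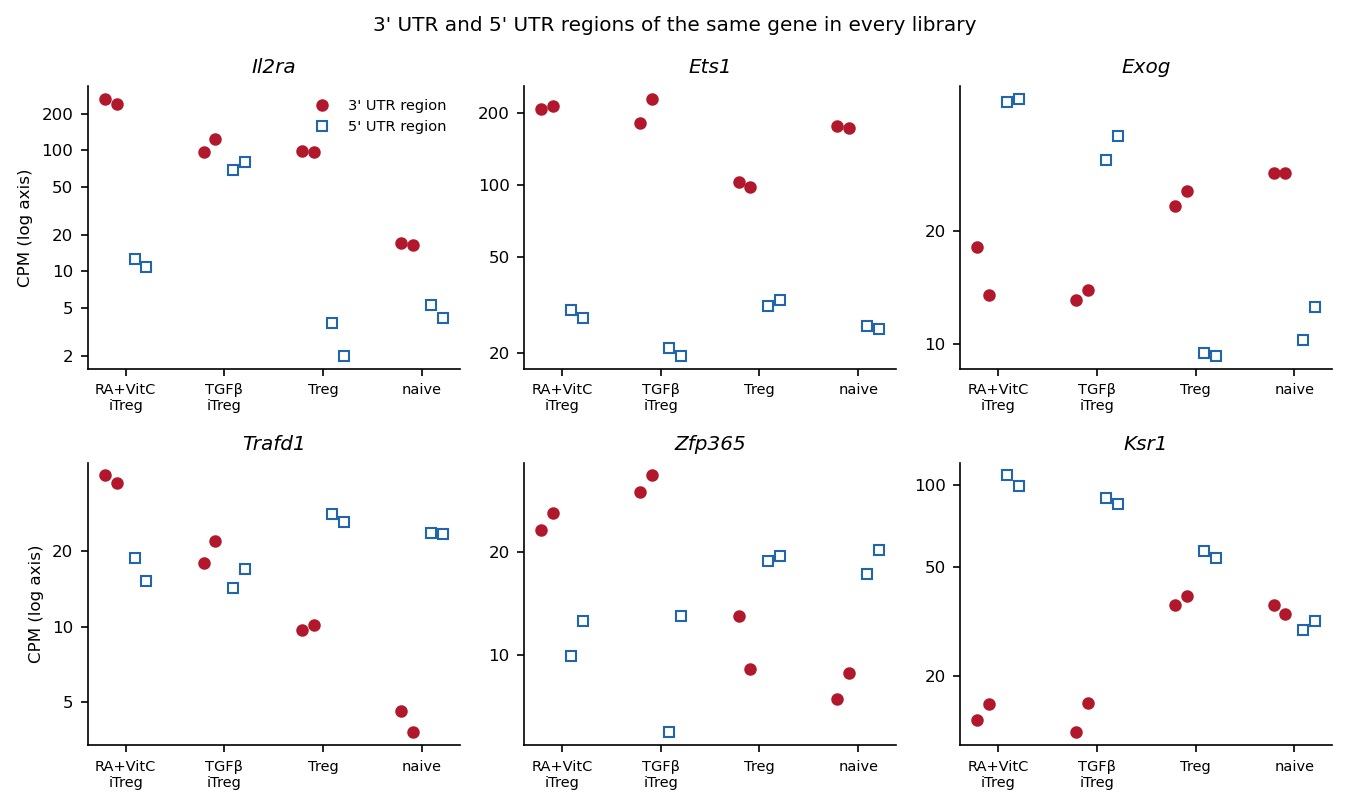
CPM (log axis) of the 3′ UTR region (filled circles) and the 5′ UTR region (open squares) of 6 genes in each pull-down library; levels of the 2 regions are not per length. The Il2ra 5′ UTR region stands at 68.5 and 79.8 CPM in TGFβ iTreg and between 2.01 and 12.6 in the other libraries, while its 3′ UTR region stands highest in RA+VitC iTreg.

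How often a 3′ UTR region was called followed its reads and width. Split by reads into 4 classes of like size, Treg over naive cells had calls for 11.5% of the class with the fewest reads (mean 2.88 to 12.8) and 42.8% of the class with the most (60.2 to 6745). RA+VitC over TGFβ iTreg had 1.19% and 21.7%. By width, Treg over naive cells gave 12.1% among regions of 176 to 824 bp and 41.8% among those over 3237 bp. Regions whose centre lay past the transcript's end were called more often than those centred in its last 10%, 27.1% of 1325 against 21.1% of 2908 in Treg over naive cells, and they were wider (median 2493 against 1210.5 bp). Regions on exon and 3′ UTR alone numbered 2270 and were called in 18.8% of cases in that comparison, against 26.6% of the 4470 that also touch an intron. These shares are descriptions, and differences in width and reads run along with each of them. All tested regions were not split in the same way, so the shares do not show a trait of 3′ UTR regions.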

How the data were processed

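5hmC was measured by CMS-IP followed by sequencing in 8 pull-down and 8 input libraries of 4 groups. Per the file headers and the labels, the deposited values are unnormalized counts, 1 per library and region, over the union of all groups' broad peaks on mm9. The submitters' processing notes name MACS2 (2.1.0.20151222), SAMtools (1.7), Trim Galore (0.4.2) and, for demultiplexing, bcl2fastq (2.20.0.442). Which aligner and counting tool were used is not given in the sources used here. No region sequence was read here.

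From these counts, pull-downs were fitted together with edgeR 4.0.16 in R 4.3.3 (quasi-likelihood F test, TMM factors, filterByExpr at 10 counts, Benjamini-Hochberg over 135412 regions, 4 residual degrees of freedom). The prior degrees of freedom were finite for 0 regions, so the spread was fully shared across regions. Inputs were fitted separately in the same way. Regions were set against their gene with diffSpliceDGE. The gene's reads include the region itself and all tested regions, intergenic ones too, whose nearest transcript bears its symbol. CPM of pull-downs in the text uses TMM-scaled library sizes, and CPM of inputs uses plain totals of reads in regions. Regions of like abundance and width were averaged over 10 by 10 classes of mean log2 CPM (prior count 2) and width, as a description with no test. The edgeR test of regions and the test against the gene were run on simulated counts with known changes in Treg over naive cells. The other steps were not run on simulated data. DESeq2 1.42.0, other scalings, filters, thinned libraries, a replicate block and left-out libraries were the alternatives.

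Named regions were, at a mean of at least 50 reads, the 5 with the largest change in each direction, the 3 farthest from their gene in each direction and the 5 highest per kb, and, with no floor on reads, up to 4 per gene list and comparison. The regions and gene lists were chosen with earlier results of these data known. Deviations from the group means correlated at 0.01 between same-numbered iTreg libraries and at 0.01 between same-numbered Treg and naive libraries. Replicates of a group differed by little more than counting error (chi-square per degree of freedom 1.09 to 1.28 over 3′ UTR regions with enough reads). Such correlations therefore cannot decide whether replicate numbers pair the libraries.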

Additional observations from a re-analysis of the deposited data

How the results depend on the processing

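In the order Treg, TGFβ iTreg and RA+VitC iTreg over naive cells, RA+VitC over TGFβ iTreg, and TGFβ and RA+VitC iTreg over Treg, calls numbered 496, 936, 1433, 312, 644 and 1069 with DESeq2, and 639, 481, 1028, 120, 331 and 735 among regions of at most 2000 bp, where fewer regions are counted. Thinned to the shallowest library they numbered 357, 963, 1166, 323 and 943 in all comparisons other than TGFβ iTreg over Treg, which stayed within 1.5 times. Thinning left 3355 regions tested in place of 6740, and 2937 in place of 6503 for the test against the gene. With 1 library left out they ranged from 981 to 1170, 914 to 1330, 1692 to 2093, 293 to 430, 637 to 1069 and 1290 to 1706. Plain library sizes, relative log expression, no filter, a floor of 20 mean reads and the replicate block kept every count within 1.5 times; with the replicate block they were 1550, 1240, 1837, 495, 893 and 1431. The split of higher and lower calls moved by over 10 points to 558 and 378 (TGFβ iTreg over naive cells), 398 and 246 (TGFβ iTreg over Treg) and 734 and 335 (RA+VitC iTreg over Treg) with DESeq2. In RA+VitC over TGFβ iTreg it moved to 313 and 193 above a floor of 20 mean reads, 221 and 102 when thinned, and 350 and 38 without TGFβ iTreg replicate 3-5, and TGFβ iTreg over Treg moved to 469 and 304 without TGFβ iTreg replicate 3-20. The difference from regions of like abundance and width was 0.005, -0.079, -0.065, 0.015, -0.085 and -0.07 by abundance alone, -0.006, -0.078, -0.034, 0.044, -0.072 and -0.028 with no classes, 0.006, -0.015, 0.003, 0.018, -0.021 and -0.003 against exon and intron regions, and -0.008, -0.065, -0.043, 0.021, -0.057 and -0.036 when thinned. For TGFβ and RA+VitC iTreg over naive cells and then over Treg it was -0.061, -0.028, -0.061 and -0.028 with 5 by 5 classes and -0.059, -0.032, -0.061 and -0.034 by width alone. For TGFβ iTreg over naive cells and over Treg it was -0.046 and -0.048 with 20 by 20 classes. With a prior count of 0.5 TGFβ iTreg over naive cells, RA+VitC over TGFβ iTreg and TGFβ iTreg over Treg gave -0.062, 0.044 and -0.062, and with a prior count of 5 they gave -0.043, 0.027 and -0.045. With 1 library left out the ranges were 0 to 0.005, -0.058 to -0.043, -0.029 to -0.008, 0.026 to 0.04, -0.059 to -0.049 and -0.029 to -0.014. Regions apart from their gene numbered 55, 448, 523, 75, 357 and 397 when thinned, 791 in RA+VitC iTreg over Treg with the replicate block, and 279 to 402, 388 to 721, 999 to 1237, 33 to 59, 255 to 559 and 687 to 997 with 1 library left out. Of 246 fold changes of named regions, 235 kept their call with plain library sizes and 232 with the replicate block, and 203 of 245 did so with DESeq2. With 1 library left out 871 of 981 kept it, 109 lost it, and Klrk1 in TGFβ iTreg over naive cells turned to -0.24 without TGFβ iTreg replicate 3-5. The cause of these changes was not tested. Settings for gene lists and for pairs of 3′ and 5′ UTR regions were chosen after seeing the data. TGFβ iTreg had the fewest reads, and its median region held 6 and 7.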

Other observations

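In CPM per kb the median tested 3′ UTR region stood at 3.17, with a range of 1.17 to 19.9, and the median of all tested regions was 3.38. Averaged over the 8 pull-down libraries, the 5 named regions with the highest level per kb lay at Ldah (19.1), Sgk1 (15.5), Id3 (14.2), Eed (13.5) and Bcl11b (13.2). These means pool groups that differed widely at some of them: Ldah had 23.7 and 23.7 CPM per kb in RA+VitC iTreg, 46.2 and 48 in TGFβ iTreg, 3.76 and 5.05 in Treg, against 0.913 and 1.28 in naive cells. Id3, an inhibitor of E proteins, had 42.2 and 34.1 CPM in RA+VitC iTreg, 35.7 and 39.4 in TGFβ iTreg, 24.2 and 31.8 in Treg, against 32.8 and 29.9 in naive cells over chr4:135701124-135703498. Every iTreg library of Id3 lay above every sorted one. Eed, a core subunit of Polycomb repressive complex 2, had 28.1 and 26.6 CPM in RA+VitC iTreg, 16.7 and 25.4 in TGFβ iTreg, 6.39 and 7.21 in Treg, against 5.9 and 6.17 in naive cells over chr7:97102426-97103556. The same held for Eed. Bcl11b, a T lineage factor, had 1435 and 1354 CPM in RA+VitC iTreg, 848 and 1026 in TGFβ iTreg, 1050 and 1106 in Treg, against 1312 and 1330 in naive cells over chr12:109141331-109230763, a region that spans much more than a 3′ UTR.

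Some of the regions belong to genes that make no protein: 51 regions carry the name of 32 such genes, and Kcnq1ot1, the long RNA of an imprinted cluster, holds 11 of them, the most of any.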
